A study of Homo sapiens with 8 samples.

Results

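NPY, RASSF10, DPF3, SOX1 and CD247 are 5 of 19775 genes measured on Affymetrix U133 Plus 2.0 arrays in Reh, an established cell line of precursor B-cell leukaemia. They were chosen by their values on the same arrays, since in an earlier look they were lower in cells given IRF5-4D together with IKKβ(EE) than in mock cells. Every probe set annotated to exactly 1 of these symbols was included, which made 11 of 41091 probe sets: 1 for NPY, 1 for RASSF10, 4 for DPF3, 3 for SOX1 and 2 for CD247. The values that chose the genes are given below as a description, with no test.

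All 4 groups were Reh cells and differed in what was transfected. The combination group received IRF5-4D and IKKβ(EE), the other groups received IKKβ(EE) alone, IRF5-4D alone or control constructs (mock), and each group held 2 arrays, numbered 1 and 3 in the labels and described as biological duplicates. IRF5-4D is an active form of the transcription factor IRF5, and IKKβ(EE) an active form of the kinase that frees NF-κB from its inhibitors. How long after transfection the cells were taken, and how many carried the constructs, is not stated in the labels. In bulk RNA, fewer cells with a transcript and less of it per cell cannot be told apart.

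The 5 genes have different roles and are not members of 1 pathway. NPY encodes neuropeptide Y, a secreted peptide transmitter best known from neurons, which acts on G protein-coupled receptors and is trimmed by the protease DPP4. RASSF10 encodes a scaffold protein of the Ras association domain family, relatives of which bind the Hippo kinases. The RASSF10 promoter is methylated in some childhood leukaemias. DPF3 is a subunit of the BAF chromatin remodelling complexes that reads histone marks through paired PHD fingers. SOX1 is an HMG-box transcription factor of neural progenitors. CD247 encodes CD3 zeta, a signalling adaptor of the T cell receptor whose tyrosine motifs are phosphorylated by LCK and then hold the kinase ZAP70, and it also serves receptors of natural killer cells.

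Values are log2 RMA expression, on which 1 unit is a 2-fold difference, and levels of different genes on an array cannot be set against each other. The lower quartile of the arrays lay between 3.67 and 3.73 and their medians between 5.10 and 5.14, and both arrays of each group had a correlation of 0.994 to 0.997 with each other over 19775 genes. Of 17 measured precursor B cell markers 16 lay above the array median on all 8 arrays, among them PAX5, EBF1, RAG1 and DNTT. Of 11 T and NK cell markers only CD5 did, of 9 myeloid markers CSF1R and ITGAM did, and of 12 neural markers 5 did (TUBB3, SNAP25, NCAM1, ELAVL4 and SYT1). The mean level of the T and NK cell markers on an array was 4.62 to 4.75 in the combination, 4.60 to 4.62 with IKKβ(EE), 4.66 with IRF5-4D and 4.66 to 4.76 in mock cells. That of the neural markers was 5.66 to 5.82 in the combination, 5.69 to 5.74 with IKKβ(EE), 5.77 to 5.82 with IRF5-4D and 5.83 to 5.85 in mock cells. In the combination 1 of the 11 T and NK cell markers rose, NKG7, a granule protein of cytotoxic cells, by 1.34 (SE 0.19, limma adjusted p = 0.00512), where 2.66% of all genes were called higher; at an unadjusted p under 0.05 it was the 1 higher, and 1 was lower, TRAT1 (-0.79). Of the neural markers 0 passed in limma, with 1 higher and 1 lower at an unadjusted p under 0.05. The part of these markers in the results below was not tested.

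The IKKβ(EE) label was borne out by an IKBKB probe set (211027_s_at), which read 11.11 and 9.33 in the combination, 12.57 and 10.98 with IKKβ(EE), 4.68 and 4.60 with IRF5-4D, and 4.80 and 4.06 in mock cells, arrays 1 and 3 in turn. On the other IKBKB probe sets the arrays given IKKβ(EE) overlapped the rest. They read 8.98 to 9.17 against 8.89 to 9.07 (209341_s_at), and 7.28 to 7.58 against 7.15 to 7.47 (209342_s_at). For IRF5 the probe set with the highest level (205469_s_at) read 8.002 and 7.82 in the combination, 6.95 and 7.13 with IKKβ(EE), 7.15 and 7.25 with IRF5-4D, and 6.93 and 7.06 in mock cells. A second (205468_s_at) read 5.56 and 5.60 in the combination, 5.13 and 5.04 with IKKβ(EE), 5.65 and 5.66 with IRF5-4D, and 5.36 and 4.82 in mock cells. On both, the 4 arrays given IRF5-4D lay above the other 4, narrowly so on the first, while on the third IRF5 probe set (239412_at) they overlapped. The labels do not say whether the construct holds the target sequence of any of them.

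The sequence just before the start of the genes is shown because both constructs act through transcription factors and the members were low on the same arrays. RefSeq windows of GRCh38.p14 held 4 of the 5 genes, DPF3 with 2 starts, and RASSF10 is named only. The 250 bases before each start were searched on both strands for GGG and CC with any 5 bases between them, a loose form of the NF-κB site. A stricter form of it, counted among its matches, had TT as bases 3 and 4 of those 5. The third motif was GAAA and GAAA with any 2 bases between them, an IRF type of site. Capitals mark matches to any of them, and matches may overlap each other and lie on either strand. Each sequence runs 5′ to 3′ in the direction of its gene.
NPY, chr7:24283940-24284189, strand +: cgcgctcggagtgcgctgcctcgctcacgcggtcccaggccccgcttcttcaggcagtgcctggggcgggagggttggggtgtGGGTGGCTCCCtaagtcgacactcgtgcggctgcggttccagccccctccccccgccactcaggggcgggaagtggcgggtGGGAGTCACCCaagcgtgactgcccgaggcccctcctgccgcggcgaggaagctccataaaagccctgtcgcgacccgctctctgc
DPF3, the second start, chr14:72892650-72892899, strand -: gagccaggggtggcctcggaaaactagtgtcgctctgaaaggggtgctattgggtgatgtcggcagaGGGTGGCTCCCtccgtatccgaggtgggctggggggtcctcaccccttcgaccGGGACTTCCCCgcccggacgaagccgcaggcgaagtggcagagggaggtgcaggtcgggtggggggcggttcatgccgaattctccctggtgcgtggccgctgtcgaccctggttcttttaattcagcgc
CD247, chr1:167518530-167518779, strand -: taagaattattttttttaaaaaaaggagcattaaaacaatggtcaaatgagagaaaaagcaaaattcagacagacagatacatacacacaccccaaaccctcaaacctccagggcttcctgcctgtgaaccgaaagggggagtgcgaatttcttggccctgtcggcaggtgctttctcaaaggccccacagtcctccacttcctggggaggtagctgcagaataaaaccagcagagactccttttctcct
The loose motif matched 4 times in the NPY window, 2 and 5 times in the DPF3 windows, 3 times in the SOX1 window and 0 times in the CD247 window. The 4 matches of NPY lay in 2 places and the 5 of the second DPF3 start in 2, since the motif read on one strand overlapped the same motif on the other. It is common, and 54.4% of 35116 windows of that length held it. The stricter form was found in 1 of these 5 windows, at the second DPF3 start as GGGACTTCCC, 130 to 121 bases before it, and in 5.07% of all windows. The IRF type was in 0 of the 5 windows and in 3.02% of all. GC content differed between the windows, with 71.6% for NPY, 82% for SOX1, 59.2% and 65.2% for DPF3 and 45.6% for CD247, against a median of 58% over all windows. These are matches of letters only.

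NPY had the largest difference of the 5 genes. Its probe set read 5.72 and 7.92 in the combination, 8.37 and 9.46 with IKKβ(EE), 10.003 and 9.45 with IRF5-4D, and 10.16 and 9.64 in mock cells. Both combination arrays were below every other array, the IKKβ(EE) arrays were below the mock arrays, and the IRF5-4D arrays overlapped mock. The combination averaged 6.82 ± 1.55 against 9.90 ± 0.37 in mock cells (SD, n = 2 each), a difference of -3.08 (SE 0.61) or 8.45-fold lower. The arrays of the combination lay 2.19 apart, and the difference was -1.98 without combination replicate 1 and -4.17 without combination replicate 3.

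In RASSF10 the combination arrays lay closest together of the 5 genes. It read 4.77 and 4.82 in the combination, 5.67 and 6.04 with IKKβ(EE), 6.58 and 6.15 with IRF5-4D, and 6.89 and 6.77 in mock cells, so that no 2 groups overlapped. Both combination values lay below the array medians (5.10 to 5.14). The part of a low signal in their closeness was not tested. The combination averaged 4.80 ± 0.03 against 6.83 ± 0.08 in mock cells (SD, n = 2 each), a difference of -2.03 (SE 0.17) or 4.09-fold lower. It stayed between -2.09 and -1.97 with any 1 of the 8 arrays left out.

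DPF3 was read by 4 probe sets, and the size of its difference depended on which was used. The one with the highest mean (238532_at) read 5.13 and 6.21 in the combination, 6.42 and 6.50 with IKKβ(EE), 7.21 and 6.65 with IRF5-4D, and 8.26 and 7.12 in mock cells. Both combination arrays were below every other array, and the IRF5-4D arrays overlapped mock. The combination averaged 5.67 ± 0.76 against 7.69 ± 0.81 in mock cells (SD, n = 2 each), a difference of -2.02 (SE 0.41) or 4.05-fold lower. A second probe set (236442_at) read 5.44 and 6.12 in the combination and 8.18 and 6.78 in mock cells, a difference of -1.71 (SE 0.42). The other 2 differed by less, by -0.22 (SE 0.15, 219746_at, where the groups overlapped) and -0.48 (SE 0.13, 235357_at, which lay at 3.67 to 4.25 on all 8 arrays, near the lower quartile). The mean of all 4 probe sets gave -1.10 (SE 0.24).

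SOX1 was low in the combination on 1 of its 3 probe sets. That probe set (237472_at) read 6.90 and 7.22 in the combination, 8.19 and 8.36 with IKKβ(EE), 8.65 and 8.38 with IRF5-4D, and 8.73 and 8.56 in mock cells. Both combination arrays were below every other array, the IKKβ(EE) arrays were below mock, and the IRF5-4D arrays overlapped mock. The combination averaged 7.06 ± 0.23 against 8.65 ± 0.12 in mock cells (SD, n = 2 each), a difference of -1.59 (SE 0.16) or 3.01-fold lower. The other probe sets read 3.59 to 4.18 (208533_at) and 4.38 to 4.95 (230982_at) over all 8 arrays, and differed by -0.10 (SE 0.13) and 0.03 (SE 0.18), and the mean of all 3 gave -0.55 (SE 0.10).

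CD247 showed the same split between its 2 probe sets. The one with the higher mean (210031_at) read 7.91 and 8.52 in the combination, 8.90 and 9.14 with IKKβ(EE), 9.73 and 9.23 with IRF5-4D, and 10.12 and 9.43 in mock cells. Here too the combination arrays were the lowest and the IRF5-4D arrays overlapped mock. The combination averaged 8.22 ± 0.43 against 9.77 ± 0.48 in mock cells (SD, n = 2 each), a difference of -1.56 (SE 0.27) or 2.94-fold lower. The other (234462_at) read 6.05 and 6.08 in the combination and 6.09 and 6.31 in mock cells, a difference of -0.13 (SE 0.14), and the mean of both gave -0.85 (SE 0.15). Where the probe sets of a gene lie in its transcripts was not analysed here.

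**Figure D1:**
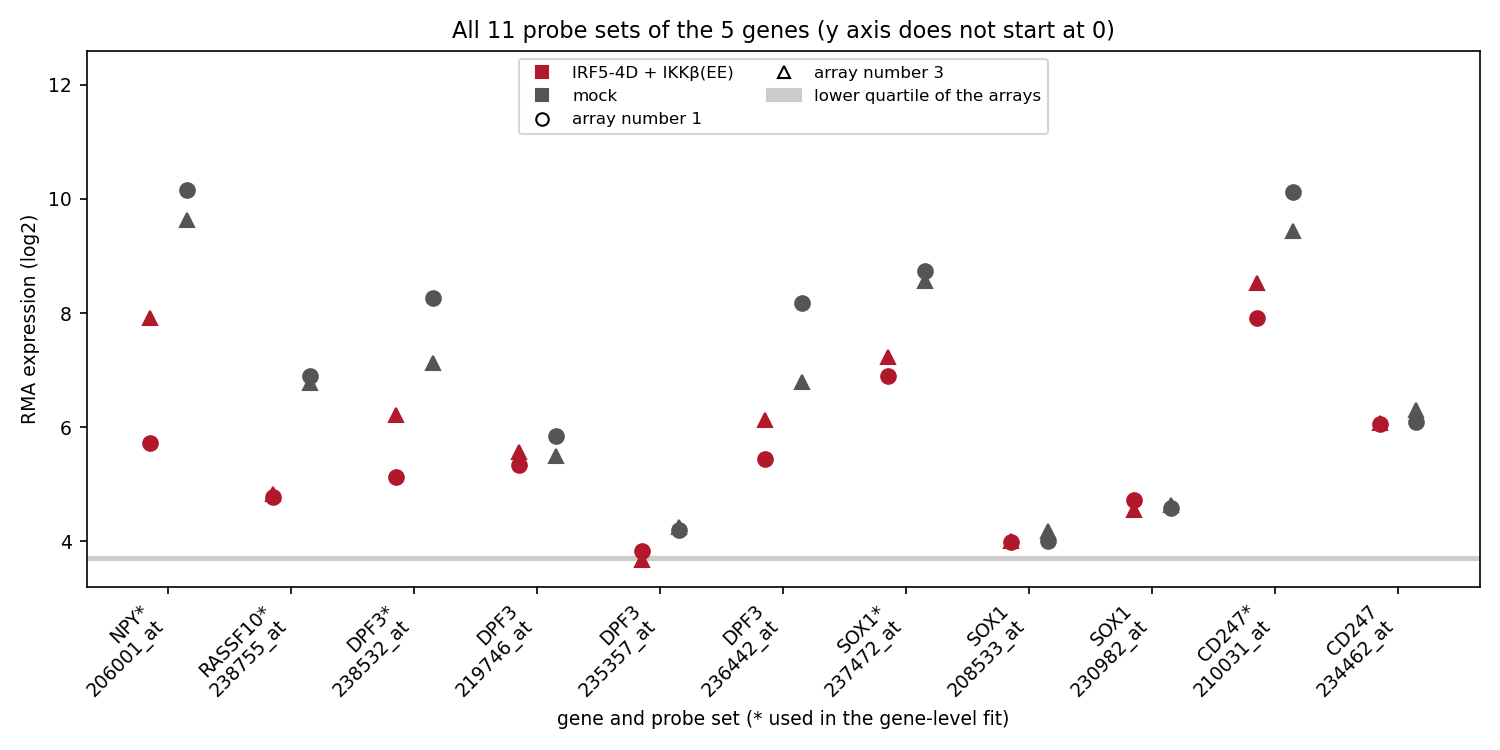
Log2 RMA expression of all 11 probe sets of the 5 genes on the 2 combination arrays and the 2 mock arrays (point shape: array number), with the lower quartile of the arrays as a grey band. The combination arrays lie clearly lower on the probe sets used for each gene and on DPF3 236442_at, and within 0.5 of mock by group mean on the other DPF3, SOX1 and CD247 probe sets.

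Genes are called here at a limma adjusted p under 0.05. By that rule 99 of 19775 genes, or 0.501%, were lower in the combination than in mock cells, and all 5 genes are among them because they were chosen so. Among those 99 by size they stood at places 1, 3, 4, 5 and 6, with RNA45SN5, a precursor of ribosomal RNA, at place 2 (-2.19). Just inside the choice lay CD247 at -1.56 and SOX1 at -1.59. Just outside lay PCDH9, a protocadherin of cell adhesion, at -1.49, CNNM2, a protein of magnesium transport, at -1.47, and the zinc exporter SLC30A1 at -1.43. The count of 99 ranged from 18 (without mock replicate 1) to 156 (without mock replicate 3) when 1 array was left out.

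The order of the group means was the same in all 5 genes: lowest in the combination, then IKKβ(EE), then IRF5-4D, and highest in mock. Of all genes 8.15% had that order, as did 47 of the other 94 genes called lower in the combination (50%). The choice of the genes puts the combination below mock, which favours these ends of the order but does not fix them. It likewise favours separation of the combination or mock arrays from those of the single constructs. Every combination array lay below every mock array, as chosen (25.1% of all genes), below every IKKβ(EE) array in all 5 genes (20.7%) and below every IRF5-4D array in all 5 (21.7%). Every IKKβ(EE) array lay below every mock array in all 5 (21.2%), and below every IRF5-4D array in RASSF10, DPF3, SOX1 and CD247 (20%). IRF5-4D lay wholly below mock in RASSF10 only (17.8%), so in the other 4 genes these neighbours in the order did not differ beyond their spread.

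**Figure D2:**
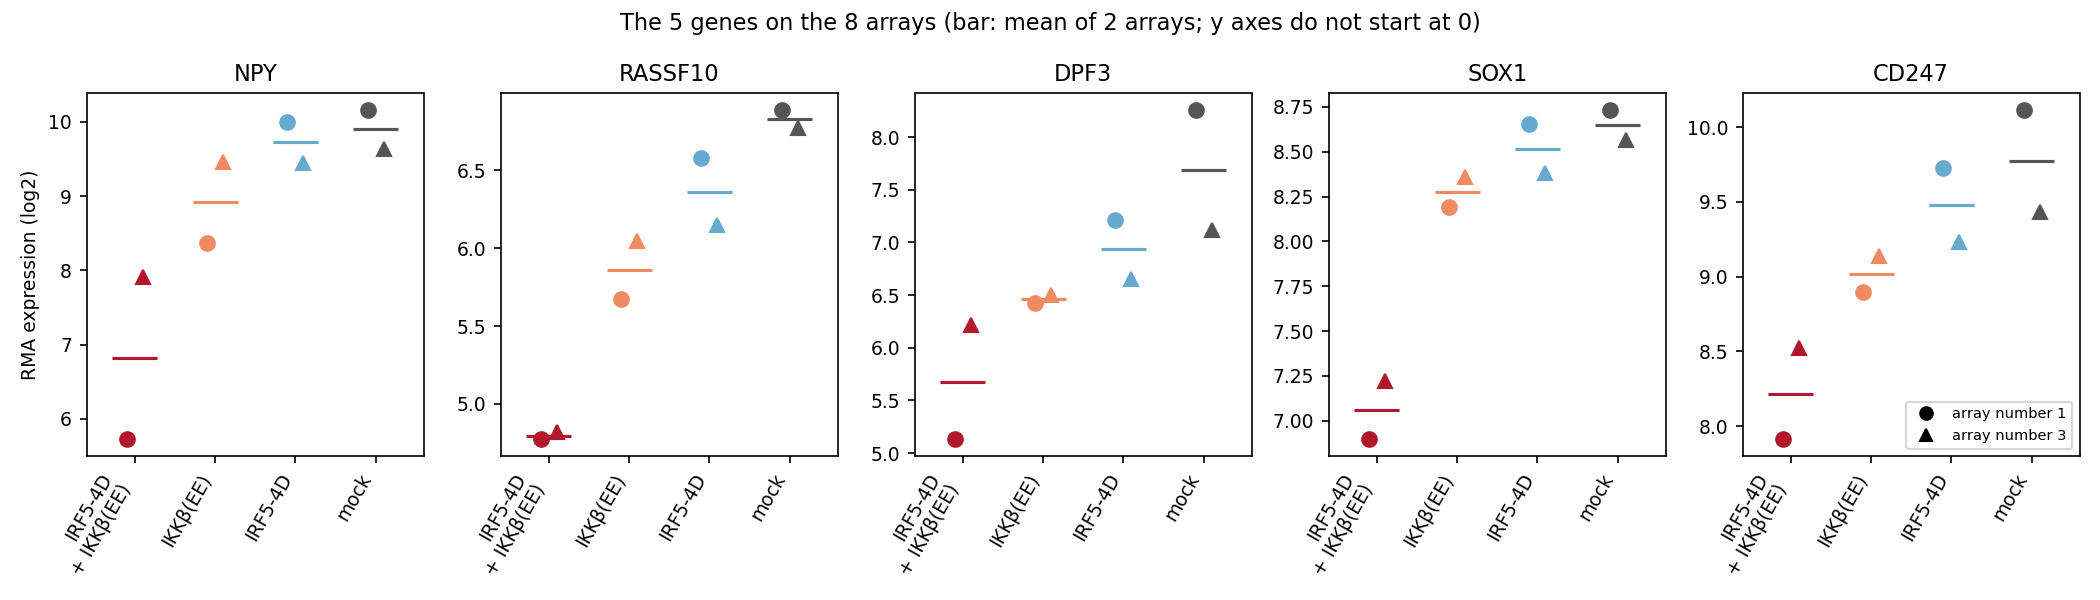
Log2 RMA expression of the 5 genes (probe set with the highest mean) on each of the 8 arrays, by group, with the mean of 2 arrays as a bar and the array number as point shape. The combination is lowest and mock highest by mean in each panel, and NPY has the widest gap between the combination arrays, 5.72 and 7.92.

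The differences of the single constructs from mock share the mock arrays that chose the genes, so they are given with intervals and no test. With IKKβ(EE) the differences were -0.98 (95% interval -2.36 to 0.40) for NPY, -0.97 (-1.36 to -0.58) for RASSF10, -1.23 (-2.14 to -0.31) for DPF3, -0.37 (-0.72 to -0.02) for SOX1 and -0.75 (-1.37 to -0.14) for CD247. With IRF5-4D they were -0.17 (-1.55 to 1.20) for NPY, -0.47 (-0.86 to -0.08) for RASSF10, -0.75 (-1.67 to 0.16) for DPF3, -0.13 (-0.48 to 0.22) for SOX1 and -0.29 (-0.91 to 0.32) for CD247. All 10 differences were below 0, a sign that 56.2% of all genes had with IKKβ(EE) and 54.3% with IRF5-4D. Among the other 94 genes called lower in the combination, 85 (90.4%) had that sign with IKKβ(EE) and 79 (84%) with IRF5-4D. With 1 array left out the IKKβ(EE) values ranged from -1.53 to -0.44 in NPY (without IKKβ(EE) replicates 3 and 1), from -1.80 to -0.66 in DPF3 and from -1.10 to -0.41 in CD247 (without mock replicates 3 and 1). With IRF5-4D the value turned above 0 with 1 array left out in NPY (0.10 without IRF5-4D replicate 3, 0.09 without mock replicate 1), SOX1 (0.01 without IRF5-4D replicate 3) and CD247 (0.05 without mock replicate 1).

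The 2 single constructs were then set against each other, a difference that uses none of the arrays that chose the genes. Its intervals and p values come from the fit to all 8 arrays. They share the variance of the difference that chose the genes and are not wholly independent of the choice. All 5 genes were higher with IRF5-4D than with IKKβ(EE), by 0.81 (95% interval -0.57 to 2.19) in NPY, 0.50 (0.11 to 0.90) in RASSF10, 0.47 (-0.44 to 1.39) in DPF3, 0.24 (-0.11 to 0.59) in SOX1 and 0.46 (-0.15 to 1.08) in CD247. None of the 5 was called in limma (adjusted p from 0.465 to 0.905), and 1, RASSF10, had an unadjusted p under 0.05, as it also did with trend, with robust variance and with a replicate block. With 1 array left out the values ranged from 0.26 to 1.35 in NPY (without IKKβ(EE) replicates 1 and 3). Without IRF5-4D replicates 1 and 3 they reached 0.29 and 0.72 in RASSF10, 0.19 and 0.75 in DPF3, 0.10 and 0.38 in SOX1, and 0.21 and 0.71 in CD247. With the mean of its probe sets the value was 0.02 in SOX1. The SOX1 probe sets not used in the fit read -0.05 (208533_at) and -0.15 (230982_at). Those of DPF3 read 0.31 (236442_at), 0.03 (235357_at) and -0.06 (219746_at), and that of CD247 read 0.04 (234462_at). Of all genes 0.764% were called in this comparison, 7.65% had an unadjusted p under 0.05 and 51.9% lay above 0. Of the other 94 genes called lower in the combination, 63 lay above 0 (67%).

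Whether both constructs together gave more than the sum of each was read from the interaction, a log2 contrast in which the combination and mock count positive and each single construct negative. With equal groups its estimate is uncorrelated with the difference that chose the genes, but its SE rests on the same variance. Reading it as a sum takes each construct as equally present alone and in the combination. IKBKB (211027_s_at) read 11.11 and 9.33 in the combination against 12.57 and 10.98 with IKKβ(EE) alone. IRF5 read higher in the combination than with IRF5-4D alone on 205469_s_at and lower on 205468_s_at. The part of these differences was not tested. The single differences summed to -1.16 in NPY against -3.08 observed in the combination, to -1.44 against -2.03 in RASSF10, to -1.98 against -2.02 in DPF3, to -0.50 against -1.59 in SOX1 and to -1.05 against -1.56 in CD247. The observed differences are those that chose the genes, and they move with the array left out (in NPY) and the probe sets used (in DPF3, SOX1 and CD247), as given above.

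The interaction was -1.92 (95% interval -3.87 to 0.03) in NPY, -0.60 (-1.15 to -0.04) in RASSF10, -0.04 (-1.33 to 1.26) in DPF3, -1.09 (-1.58 to -0.59) in SOX1 and -0.51 (-1.38 to 0.36) in CD247. None of the 5 was called in limma (adjusted p from 0.18 in SOX1 to 0.997 in DPF3). RASSF10 and SOX1 had an unadjusted p under 0.05, which 6.1% of all genes had, and 3 of the 5 had one with trend or with a replicate block. Of all genes 0.126% were called for the interaction, 0.0303% below 0. On the probe sets used, all 5 values were below 0. So were 46.7% of all genes and 77 of the other 94 genes called lower in the combination (81.9%). The other probe sets read 0.19 (236442_at), 0.13 (235357_at) and 0.47 (219746_at) in DPF3 and 0.05 (234462_at) in CD247. In SOX1 230982_at read -0.24, and 208533_at is given below. With 1 array left out the interaction ranged from -3.02 to -0.83 in NPY (without combination replicates 3 and 1), from -0.81 to -0.38 in RASSF10 (without IRF5-4D replicates 3 and 1) and from -0.85 to -0.17 in CD247 (without mock replicates 1 and 3). It ranged from -0.61 to 0.53 in DPF3, where the sign turned, and from -1.25 to -0.92 in SOX1. For SOX1 the interaction was -0.23 with the mean of its 3 probe sets, and the probe set 208533_at, near the lower quartile, read 0.63 (SE 0.19, limma adjusted p = 0.507 over all probe sets), opposite in sign to the probe set used.

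**Figure D3:**
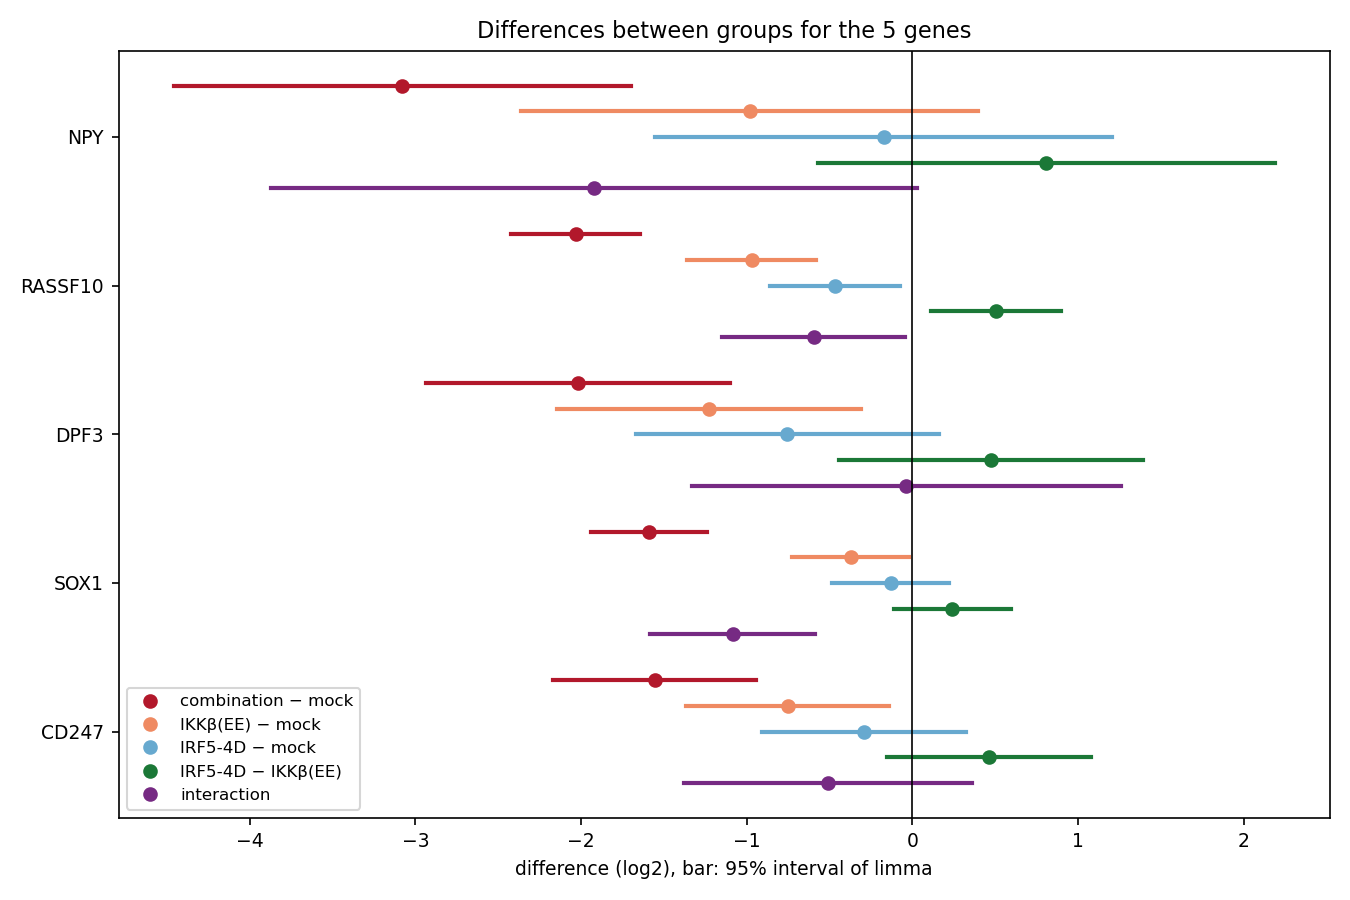
Differences between groups for the 5 genes on the log2 scale, as points with the 95% interval of limma: the combination, IKKβ(EE) and IRF5-4D each minus mock, IRF5-4D minus IKKβ(EE), and the interaction. The interaction interval lies below 0 in SOX1 and RASSF10 and is centred near 0, at -0.04, in DPF3.

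The 2 arrays of a group differed in the same direction across the 5 genes. Array 1 read lower than array 3 in the combination and with IKKβ(EE), and higher than array 3 with IRF5-4D and in mock cells, in all 5 genes; 5.48% of all genes and 16 of the other 94 called lower in the combination (17%) had this pattern, which was looked for after the values were seen. In NPY, array 1 minus array 3 was -2.19 in the combination, -1.09 with IKKβ(EE), 0.56 with IRF5-4D and 0.52 in mock cells. In RASSF10 the gaps were -0.05, -0.37, 0.43 and 0.12 in the same order of groups. The differences of the combination from mock were therefore larger within number 1 than within number 3: -4.44 and -1.72 in NPY, -2.12 and -1.95 in RASSF10, -3.13 and -0.91 in DPF3, -1.84 and -1.34 in SOX1, and -2.20 and -0.91 in CD247. The IKBKB probe set was higher on array 1 than on array 3 in all 4 groups, with or without IKKβ(EE), as shown by its values above. Its part in these gaps was not tested.

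**Figure D4:**
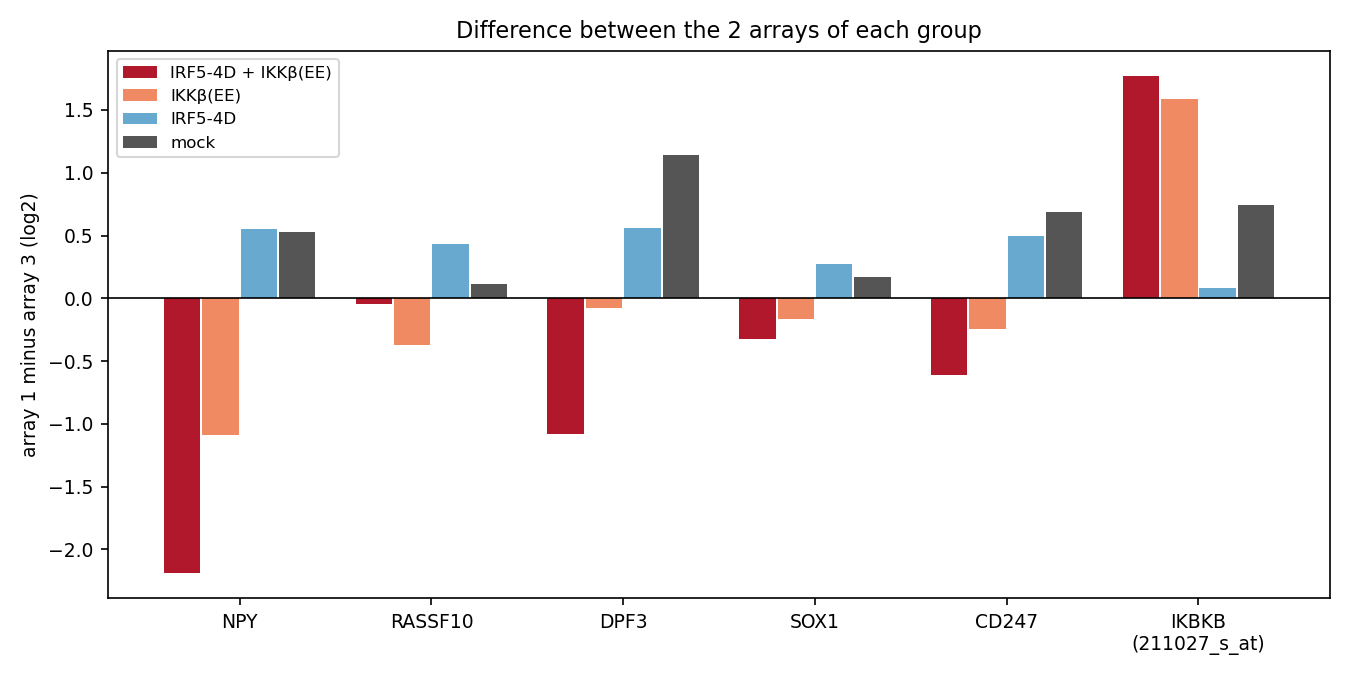
Array 1 minus array 3 of each group on the log2 scale, as bars, for the 5 genes and the IKBKB probe set that read the construct. In all 5 genes the bars are below 0 for the combination and IKKβ(EE) and above 0 for IRF5-4D and mock, while the IKBKB bars are above 0.

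Relatives and partners of each gene were examined next, in comparisons against mock that share the mock arrays. In the combination against mock 0.501% of all genes were called lower and 2.66% higher, and the median of all genes was -0.03. No gene of the 5 lists fell, so none of the relatives or partners was called in the direction of the 5 genes.

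Of 11 genes of the NPY system 7 were measured, and 0 passed in limma in any comparison against mock; at an unadjusted p under 0.05 in the combination 0 were higher and 1 was lower. The median in the combination was -0.19. The 1 was DPP4, the protease that trims NPY, which read 3.51 and 3.69 in the combination and 4.00 and 4.03 in mock cells, near the lower quartile (-0.41, SE 0.12, limma adjusted p = 0.127). The related peptide gene PYY differed by -0.26 (SE 0.13, limma adjusted p = 0.368), and the receptor genes NPY1R, NPY2R and NPY5R by 0.03, -0.03 and -0.19.

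Of 22 genes of the RASSF family and the Hippo pathway 2 rose in the combination, 0 fell and 20 did not pass, with a median of -0.01; 3 were higher and 3 lower at an unadjusted p under 0.05. LATS2, a Hippo kinase, read 9.28 and 9.02 in the combination and 8.12 and 8.03 in mock cells, a rise of 1.07 (SE 0.15, limma adjusted p = 0.0058). STK4, the Hippo kinase also called MST1, read 10.23 and 10.14 in the combination and 9.41 and 9.64 in mock cells, a rise of 0.66 (SE 0.12, limma adjusted p = 0.0231), and it lost the call without combination replicate 1 (0.62), combination replicate 3 (0.70) or mock replicate 1 (0.55), and at the same value in the fit of only the 2 groups (adjusted p = 0.11). LATS2 lost it with the mean of its probe sets (0.67). The 9 relatives RASSF1 to RASSF9 ranged from -0.67 (RASSF2) to 0.45 (RASSF3), and none passed. With IKKβ(EE) or IRF5-4D alone 0 of the 22 passed in limma, with 1 higher and 1 lower at an unadjusted p under 0.05 in each.

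Of 26 subunits of the BAF and PBAF complexes 0 passed in the combination in limma, with a median of -0.05; 1 was higher and 2 were lower at an unadjusted p under 0.05. DPF1 and DPF2, the relatives of DPF3, differed by -0.11 (SE 0.11) and -0.09 (SE 0.13), and PHF10, its counterpart in PBAF, by 0.15 (SE 0.18). With IKKβ(EE) alone 1 of 26 rose and 0 fell, where 0.516% of all genes were called higher. The gene that rose was the ATPase SMARCA2, which read 10.80 and 10.94 with IKKβ(EE) against 9.91 and 9.85 in mock cells, a rise of 0.99 (SE 0.12, limma adjusted p = 0.00923). In the combination SMARCA2 read 10.01 and 10.13. It lost the call with the mean of its probe sets (0.50) and without IKKβ(EE) replicate 1 (1.06), IKKβ(EE) replicate 3 (0.92) or mock replicate 3 (0.96).

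Of 19 other SOX genes 0 passed in the combination in limma, with a median of -0.08; 1 was higher and 1 lower at an unadjusted p under 0.05. SOX7, a factor of endothelial and blood development, read 9.78 and 11.05 in the combination and 8.95 and 8.84 in mock cells, a difference of 1.52 (SE 0.35, limma adjusted p = 0.0531). It passed with trend, with a replicate block and without combination replicate 1 (2.16). SOX11 read 5.52 and 5.85 in the combination and 7.01 and 6.27 in mock cells, a difference of -0.95 (SE 0.28, limma adjusted p = 0.12), and passed without mock replicate 3 (-1.33). SOX2 and SOX3, the closest relatives of SOX1, differed by -0.28 (SE 0.20) and 0.11 (SE 0.16).

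Of 22 genes of T cell receptor and CD247-associated signalling 20 were measured, and 1 rose in the combination, 0 fell and 19 did not pass, with a median of -0.12; 1 was higher and 2 were lower at an unadjusted p under 0.05. FCER1G, an adaptor related to CD247 and shared by Fc receptors, read 9.43 and 8.70 in the combination, 4.69 and 4.67 with IKKβ(EE), 6.55 and 6.34 with IRF5-4D, and 4.56 and 4.73 in mock cells. It rose by 4.42 (SE 0.21, limma adjusted p = 1.26e-05) in the combination and by 1.80 (SE 0.21, limma adjusted p = 0.00776) with IRF5-4D, where 0.314% of all genes were called higher and 0.00506% lower; the second call was lost without either IRF5-4D array (1.70 and 1.91) or mock replicate 1 (1.72). In the combination FCER1G was thus higher and CD247 lower than in mock cells. The other receptor chains CD3D, CD3E and CD3G differed by -0.19, -0.03 and -0.14 in the combination, and the kinases LCK and ZAP70 by -0.17 and -0.12, none of which passed. The 2 genes of the list that were lower at an unadjusted p under 0.05 were TRAT1 (-0.79, SE 0.21, limma adjusted p = 0.0886) and the coreceptor gene CD4 (-0.37, SE 0.16, limma adjusted p = 0.309).

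**Figure D5:**
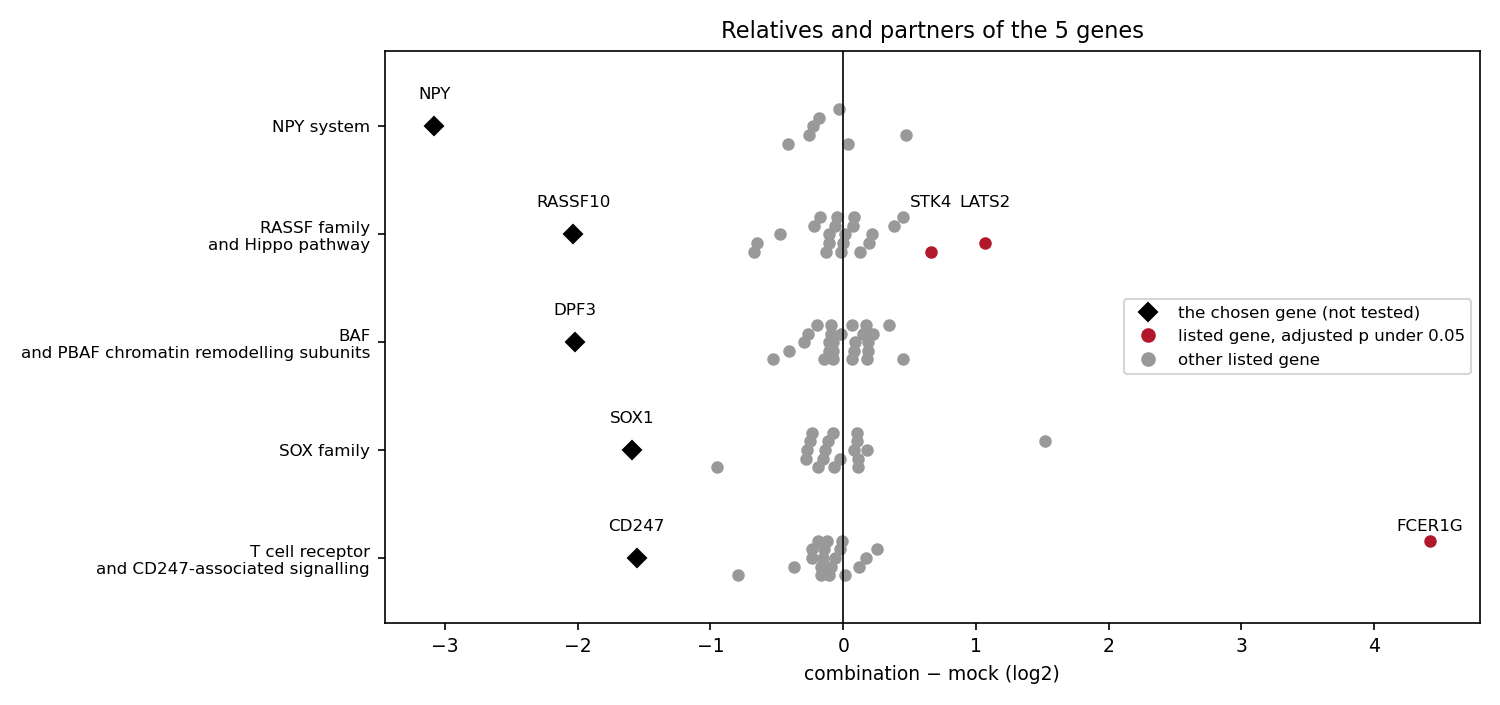
Combination minus mock on the log2 scale for the genes of the 5 lists (circles, red where called in limma) and for the gene each list belongs to (diamonds, not tested). The called genes LATS2, STK4 and FCER1G lie above 0, and each diamond lies left of every circle in its row.

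The genes most like each of the 5 were named by Pearson's r over the 8 arrays among the 1451 genes whose highest and lowest array differed by at least 1, as a description, since all values come from the same 8 arrays. For NPY they were SIGLEC15, a sialic acid-binding lectin (r = 0.965), NCOA5 (0.952) and CD247 (0.949). For RASSF10 they were SOX1 (0.958), CD247 (0.945) and the SUMO ligase gene PIAS2 (0.944). For DPF3 they were SKI, a corepressor in TGF-β signalling (0.981), MAP3K5-AS2 (0.979) and HAP1 (0.977). For SOX1 they were PFKFB3, an enzyme that regulates glycolysis (0.972), RASSF10 (0.958) and NCOA5 (0.953). For CD247 they were TRAT1, an adaptor of the T cell receptor (0.982), DPF3 (0.972) and SASH3, an adaptor of lymphocytes (0.969). TRAT1 had group means of 3.31 in the combination, 3.72 with IKKβ(EE), 3.90 with IRF5-4D and 4.11 in mock cells, near the lower quartile. Among the 5 genes themselves r ranged from 0.854 (DPF3 and SOX1) to 0.972 (DPF3 and CD247). All 5 were chosen for being lower in the combination than in mock cells, so high r among them follows in part from the choice. Shared regulation was not tested.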

How the data were processed

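Expression was measured in 8 samples of transfected Reh cells, grouped by the sample labels. The authors deposited log2 expression per probe set, made with RMA per the submitters' processing notes, which name neither a version nor a chip definition in the sources used here. Arrays have no read depth, and their number limits the precision.

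Of 54675 probe sets, 62 controls and 13522 without exactly 1 symbol in the platform annotation of the array were left out, which left 41091 for 19775 genes. A gene was represented by its probe set with the highest mean. Limma 3.58.1 under R 4.3.3 (lmFit, eBayes) was fitted to all genes and 8 arrays as group means, which left 4 residual degrees of freedom (prior 5.09), and p values were adjusted by Benjamini-Hochberg over all genes. The code was tested on simulated data.

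The 5 genes and the gene lists were chosen with earlier results of these data known. The rule for naming took these genes, the 3 next largest falls, up to 3 called genes per list (otherwise the 2 with the lowest p) and the 3 genes with the highest r; others, such as family relatives, were named after their values were seen. Alternatives were the mean of probe sets, each probe set alone, no _x_at probe sets, a level filter, median centring, quantile normalization, trend, robust variance, a replicate block, only 2 groups, each array left out, calls at an adjusted p under 0.1, a stricter motif, and, added after seeing the data, values within each array number.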

Additional observations from a re-analysis of the deposited data

Results flagged for a closer look

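FCER1G stood out because its response to both constructs together differed from the sum of the single responses, by the test of that difference itself. The interaction was 2.59 (SE 0.30, limma adjusted p = 0.0238) on the log2 scale, with 9.43 and 8.70 in the combination, 4.69 and 4.67 with IKKβ(EE), 6.55 and 6.34 with IRF5-4D, and 4.56 and 4.73 in mock cells. It passed in 10 of 17 alternatives, with adjusted p from 0.0011 to 0.138. It lost the call without either IRF5-4D array (2.69 and 2.48), either IKKβ(EE) array (2.60 and 2.57) or either mock array (2.67 and 2.50), and when only genes above the median level were tested (2.59).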

How the results depend on the processing

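Of the 173 alternative values for the tests of the 5 genes (IRF5-4D against IKKβ(EE), and the interaction, single probe sets not included), 168 kept their direction and stayed uncalled. The other 5 were the interaction of DPF3, which changed sign with the mean of its probe sets (0.19) and with 1 array left out (from -0.61 to 0.53, above 0 without combination replicate 1, 0.50, IRF5-4D replicate 1, 0.24, IKKβ(EE) replicate 3, 0.00056, and mock replicate 3, 0.53). Adjusted p over the alternatives went down to 0.0848 for NPY and 0.0852 for SOX1 in the interaction. Combination minus mock moved with the mean of probe sets to -1.10 in DPF3, -0.55 in SOX1 and -0.85 in CD247. With 1 array left out it ranged from -4.17 to -1.98 in NPY, -2.59 to -1.45 in DPF3, -1.75 to -1.43 in SOX1 and -1.90 to -1.21 in CD247. Within number 1 and number 3, a comparison chosen after seeing the data, it was -4.44 and -1.72 in NPY, -3.13 and -0.91 in DPF3, -1.84 and -1.34 in SOX1, and -2.20 and -0.91 in CD247. IRF5-4D minus mock changed sign with 1 array left out and ranged from -0.45 to 0.10 in NPY (also 0.088), -0.27 to 0.00598 in SOX1 and -0.63 to 0.0502 in CD247.

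The count of 99 genes lower in the combination became 155 with median centring, 230 with a replicate block, 21 with only the 2 groups, 282 at an adjusted p under 0.1 and 18 to 156 with 1 array left out (39 and 61 without combination replicates 1 and 3, 48 without either IRF5-4D array, 51 without either IKKβ(EE) array, 18 and 156 without mock replicates 1 and 3). The 151 genes called between the single constructs became 95 above the median level and 42 to 182 with 1 array left out, at most 69 where it came from a single construct. The 25 called for the interaction became 9 with the mean of probe sets, 0 above the median level in limma (597 of 9887 at an unadjusted p under 0.05), 56 with a replicate block, 40 at an adjusted p under 0.1 and 0 to 80 with 1 array left out (0 without IRF5-4D replicate 3, with 1077 at an unadjusted p under 0.05). The 2 RASSF and Hippo genes became 1 with the mean of probe sets, with only the 2 groups and at the fewest with 1 array left out. The 0 SOX genes became 1 with trend, a replicate block, at an adjusted p under 0.1 and at the most with 1 array left out, and the 1 T cell receptor gene became 2 at an adjusted p under 0.1, with TRAT1, which was lower, as the second. The cause of these changes was not tested, beyond the smaller number of arrays or genes in a fit.

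Whether the numbers 1 and 3 pair the samples was not settled, with 2 numbers in each group. Array 1 minus array 3 correlated across genes at 0.22 to 0.34 between IRF5-4D, IKKβ(EE) and mock. Between the combination and each of these it correlated at -0.07 to 0.11. The replicate block called 0 of the 5 genes in either test, as did the fit without it, so these calls cannot decide the pairing. The level filter used the median of the levels of the 19775 genes, not the array medians given above. RASSF10 lay below it and has no value under that filter, and the interaction has none with only 2 groups. Signals near the lower quartile limit the low probe sets of DPF3 and SOX1. The stricter motif matched 1 of the 5 windows where the loose one matched 4.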
